A study of Mus musculus with 6 samples.

Results

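The 10 genes Gfap, Aqp4, Slc1a2, Slc1a3, Gja1, Gjb6, Aldh1l1, Aldoc, S100b and Fgfr3, which are widely used as markers of astrocytes, were each found as a single row, matched by gene symbol, among the 54532 genes of the count table. RNA had been sequenced from sciatic nerves at postnatal day 3, in 1 library for each of 3 wild-type (control) mice and 3 Dok6 mutant mice, to ask which genes change when Dok6 is lost. All mice were on a C57BL/6 background. The mutants carried a deletion of exon 3 of Dok6, made with EIIA-cre, which is active from the early fertilized egg, so that every tissue and not only neurons lacked the exon. Dok6 encodes an adaptor protein that docks to receptor tyrosine kinases. By the methods, experiments other than behaviour did not distinguish the sex of the mice, and the labels do not say whether nerves were pooled. The astrocyte genes are used here to describe which glia contributed RNA to the libraries.

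Astrocytes are the star-shaped glia of the brain and spinal cord. They clear glutamate from synapses, buffer potassium, move water at blood vessels and are coupled to each other by gap junctions. The sciatic nerve lies outside the central nervous system, and its main glia are Schwann cells, while satellite glial cells surround the neurons of the dorsal root ganglia. Several of the 10 genes are not restricted to astrocytes: GFAP is also made by immature and non-myelinating Schwann cells, S100B by Schwann cells, connexin 43 (Gja1) by fibroblasts and vessels, the glutamate transporter of Slc1a3 by satellite glial cells and radial glia, and FGFR3 by cartilage. Aqp4, Slc1a2, Gjb6 and Aldh1l1 are the members that are most closely tied to astrocytes within the nervous system.

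The libraries held 17699904 to 18678170 counts, so that the smallest level taken as detectable, 3 counts, was 0.155 to 0.172 CPM (counts scaled to the library total and its TMM factor), which covers counting error only. Dok6 itself was at 17.8, 11.9 and 17.5 CPM in control mice 1, 2 and 3 and at 7.25, 5.77 and 7.14 CPM in the mutants, which gave a log2 fold change of -1.23 with a standard error (SE) of 0.20 and an edgeR adjusted p of 0.0118. Markers of the labelled tissue were uneven in the control libraries. Prx, which encodes the Schwann cell protein periaxin, was at 10.3, 5.44 and 3.83 CPM in control mice 1, 2 and 3, and at 28.2, 330 and 18.6 CPM in mutant mice 1, 2 and 3. Per kb of gene length, Prx was at 0.686 to 1.84 CPM in the controls and Egr2, the transcription factor of myelinating Schwann cells, at 0.118 to 0.354. Genes of the same list that neurons or oligodendrocytes also express were higher there, with Cadm4 at 212 to 253, L1cam at 47.6 to 51.2, Sox10 at 13.8 to 35.2 and Ngfr at 14.4 to 24.7 CPM per kb. Genes of central neurons spanned a wide range in the controls, from Slc17a7, a vesicular glutamate transporter, at 0.401 to 0.974 CPM and Chat, the enzyme of acetylcholine synthesis, at 2.92 to 6.91 CPM to Snap25, a synaptic protein, at 412 to 596 CPM. Slc32a1, the vesicular transporter for GABA and glycine, was at 159 to 181 CPM in the controls and at 125 to 147 CPM in the mutants, and Slc6a5, the neuronal glycine transporter of the spinal cord and brainstem, was at 176 to 263 CPM over the 6 libraries. Libraries labelled sciatic nerve are therefore called by their label here, and which tissues the RNA came from was not tested. In bulk RNA, fewer cells of a type and less RNA per cell cannot be told apart.

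All 10 astrocyte genes were present in every library, with at least 136 counts each. Together they took 0.270% to 0.324% of the counts in the control libraries and 0.233% to 0.430% in the mutant libraries. Their summed level was 3022, 2753 and 3331 CPM in control mice 1, 2 and 3 and 4155, 4029 and 2288 CPM in mutant mice 1, 2 and 3. The mutants therefore held both the highest and the lowest sums, and the control range lay between them.

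Levels were compared between genes per kb of the gene length that the authors gave. Aldoc, the gene of the aldolase of brain glycolysis, was the highest, at 238 ± 32.8 CPM per kb (SD, n = 6 libraries), and exceeded every other member in every library without overlap. Gfap, the intermediate filament of astrocytes, followed at 90.0 ± 39.1 CPM per kb, Aqp4 at 73.0 ± 27.0, Slc1a3 at 57.0 ± 10.2 and Slc1a2 at 48.2 ± 14.0. Aldh1l1 (30.2 ± 4.11 CPM per kb), Gja1 (25.1 ± 7.19), Fgfr3 (24.6 ± 4.99) and S100b (22.2 ± 11.6) came next, and Gjb6 was the lowest, at 4.53 ± 0.920. From Gfap down to S100b, the ranges of each pair of neighbours in this order overlapped. Slc1a2 was nevertheless above Aldh1l1 in 6 of 6 libraries, whereas Gja1, Fgfr3 and S100b did not differ beyond their spread, as Gja1 was above Fgfr3, and Fgfr3 above S100b, in 4 of 6 libraries.

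**Figure D1:**
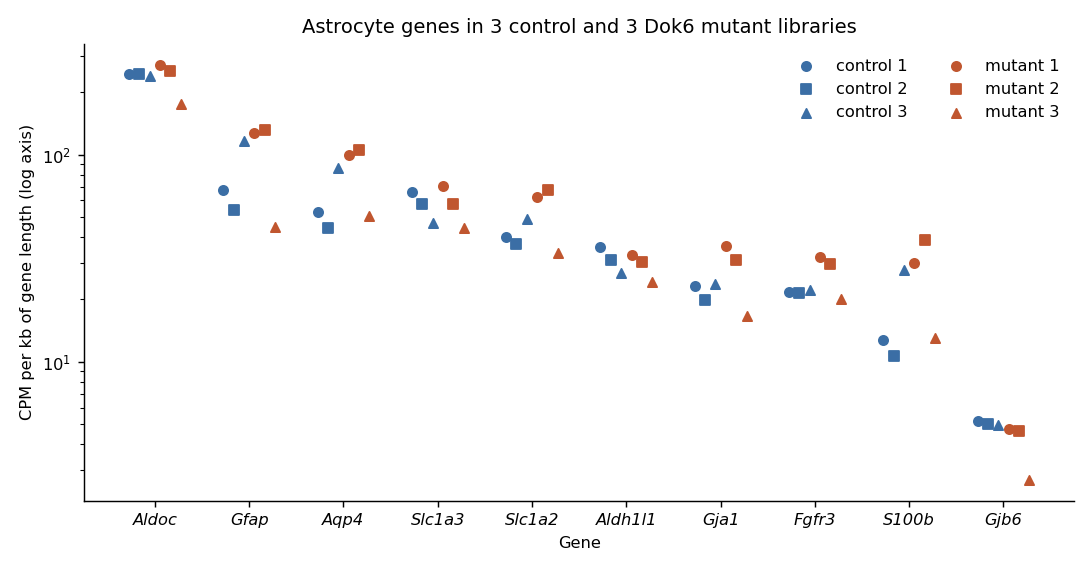
Level of each astrocyte gene per kb of gene length (CPM per kb, log axis) in the 3 control (blue) and 3 Dok6 mutant (orange) libraries, with the marker shape giving the mouse number. The points lie between 2.69 and 271 CPM per kb, and mutant mouse 3 is the lowest of the mutants for every gene.

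Gfap and S100b, a cytoskeletal and a calcium-binding protein of mature glia, varied most between mice. Gfap was at 284, 227 and 489 CPM in control mice 1, 2 and 3 and at 537, 554 and 189 CPM in mutant mice 1, 2 and 3. The third control therefore lay with the first and second mutants, and the third mutant lay below every control. Its log2 fold change between genotypes was 0.36 (SE 0.40, 95% interval -0.56 to 1.27, adjusted p = 0.566, edgeR). S100b was at 18.8, 15.9 and 41.3 CPM in the controls and at 44.6, 57.5 and 19.4 CPM in the mutants. It showed the same order of libraries, except that the third mutant lay just above control mice 1 and 2. Its log2 fold change was 0.68 (with SE 0.44, 95% interval -0.32 to 1.67, adjusted p = 0.311, edgeR). The highest library exceeded the lowest 2.93-fold for Gfap and 3.62-fold for S100b, against a median of 1.39-fold over the 10668 tested genes with a mean of at least 10 CPM.

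The promoters of Gfap and S100b are shown as the 300 bases around the start that RefSeq gives on GRCm38.p6. They are read 5′ to 3′ on the strand of the gene, with the start at base 251. Aqp4, the member whose profile over the libraries was nearest to both, had no promoter entry. Whether these sequences bear on the profiles was not tested. The Gfap window is chr11:102897151-102897450 on the minus strand and the S100b window is chr10:76253586-76253885 on the plus strand. Capitals mark a match to the STAT motif TTCNNNGAA in Gfap and to the motif TTGGCA of nuclear factor I (NFI) in S100b:

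Gfap: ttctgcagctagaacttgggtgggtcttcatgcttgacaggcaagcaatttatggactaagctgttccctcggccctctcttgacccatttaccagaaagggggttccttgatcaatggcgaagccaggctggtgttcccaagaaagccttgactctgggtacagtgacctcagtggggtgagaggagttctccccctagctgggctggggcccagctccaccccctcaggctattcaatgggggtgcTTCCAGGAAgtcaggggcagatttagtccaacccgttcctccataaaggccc

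S100b: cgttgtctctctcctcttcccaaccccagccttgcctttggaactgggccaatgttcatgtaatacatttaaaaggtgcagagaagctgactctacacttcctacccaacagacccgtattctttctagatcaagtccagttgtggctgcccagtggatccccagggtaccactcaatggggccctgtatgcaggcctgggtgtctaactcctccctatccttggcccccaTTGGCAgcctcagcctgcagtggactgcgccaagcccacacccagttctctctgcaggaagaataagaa

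The STAT motif, searched on both strands, was in 3 of 11 windows of the 9 members with a promoter entry (Gfap, Aldoc and Slc1a3) and in 8.30% of 32851 promoters of the same length. TTGGCA was in the windows of S100b and Aldoc, and in 14.1% of all promoters. The AP-1 motif TGANTCA was in the window of Gja1 and in 7.81% of all promoters, the GC box GGGCGG was in 5 of the 11 windows and 35.7% of all, and TATAAA was in the window of Slc1a3 and 13.6% of all. No motif was common to all members, and a match describes letters only.

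Aqp4 encodes the water channel of the astrocyte end feet, and Gja1 and Gjb6 encode connexins 43 and 30, which form the gap junctions of astrocytes. Aqp4 was at 269, 223 and 438 CPM in the controls and at 507, 531 and 257 CPM in the mutants, so that again the third control and the first and second mutants were high and the genotypes overlapped. The log2 fold change of Aqp4 was 0.48 (SE 0.31, 95% interval -0.22 to 1.18, adjusted p = 0.312, edgeR). Gja1 was at 239, 203 and 243 CPM in the controls and at 370, 318 and 171 CPM in the mutants. The first and second mutants were above all controls and the third mutant was below them, and the log2 fold change was 0.33 (with SE 0.24, adjusted p = 0.371, edgeR). Gjb6 was even in the controls, at 13.8, 13.4 and 13.2 CPM, and was at 12.6, 12.5 and 7.20 CPM in the mutants. Gjb6 was the only member whose mutant values all lay on the same side of the controls, and 38.2% of all 17099 genes tested showed such a separation in either direction. Its log2 fold change was -0.32 (with SE 0.21, 95% interval -0.81 to 0.16, adjusted p = 0.324, edgeR). The ratio of Gja1 to Gjb6 per kb, which does not depend on the scaling of the libraries, was 4.51, 3.95 and 4.80 in the controls and 7.64, 6.64 and 6.21 in the mutants. This ratio was chosen after the values were seen and was not tested. Genes of fibroblasts and connective tissue, cells that also express Gja1, summed to 218 to 1160 CPM in the controls and to 2120 to 3170 CPM in the mutants, and their part in the ratio was not tested.

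Slc1a2 and Slc1a3 encode GLT-1 and GLAST, the glutamate transporters of astrocytes, of which GLAST is the main form in radial glia and immature astrocytes and GLT-1 rises as astrocytes mature. Slc1a2 was at 524, 485 and 645 CPM in the controls and at 821, 881 and 439 CPM in the mutants. The first and second mutants were the highest and the third mutant was the lowest of the 6, with a log2 fold change of 0.37 (SE 0.24, 95% interval -0.17 to 0.92, adjusted p = 0.309, edgeR). Slc1a3 was at 560, 490 and 399 CPM in the controls and at 600, 495 and 378 CPM in the mutants. For Slc1a3 the third mouse was the lowest in both genotypes, and the log2 fold change was 0.03 (with SE 0.18, 95% interval -0.38 to 0.43, adjusted p = 0.936, edgeR). Per kb, the ratio of Slc1a2 to Slc1a3 was 0.609, 0.644 and 1.05 in the controls and 0.889, 1.16 and 0.754 in the mutants. Slc1a2 therefore exceeded Slc1a3 in control mouse 3 and mutant mouse 2, and the ratios of the genotypes overlapped.

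Aldh1l1, an enzyme of folate metabolism that marks astrocytes as a class, Aldoc and Fgfr3, a receptor for fibroblast growth factors found on astrocyte precursors and astrocytes, varied less. Aldh1l1 was at 161, 141 and 121 CPM in the controls and at 148, 136 and 110 CPM in the mutants. The third mouse was again the lowest within each genotype, and the log2 fold change was -0.10 (with SE 0.14, 95% interval -0.41 to 0.21, adjusted p = 0.631, edgeR). Aldoc was at 798, 800 and 782 CPM in the controls and at 885, 830 and 572 CPM in the mutants, and its log2 fold change was -0.06 (with SE 0.15, adjusted p = 0.826, edgeR). Fgfr3 was at 155, 154 and 160 CPM in the controls and at 229, 214 and 145 CPM in the mutants. The first and second mutants were above the narrow range of the controls and the third mutant was below it, and the log2 fold change was 0.33 (with SE 0.15, 95% interval -0.02 to 0.67, adjusted p = 0.171, edgeR). Gfap against Aldh1l1 per kb was at 1.88, 1.73 and 4.32 in control mice 1, 2 and 3 and at 3.88, 4.35 and 1.85 in mutant mice 1, 2 and 3. The members thus differed in how they varied, as Gfap, Aqp4 and S100b were high in control mouse 3, close to the first and second mutants, whereas Aldh1l1 and Slc1a3 were at their lowest among the controls there.

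**Figure D2:**
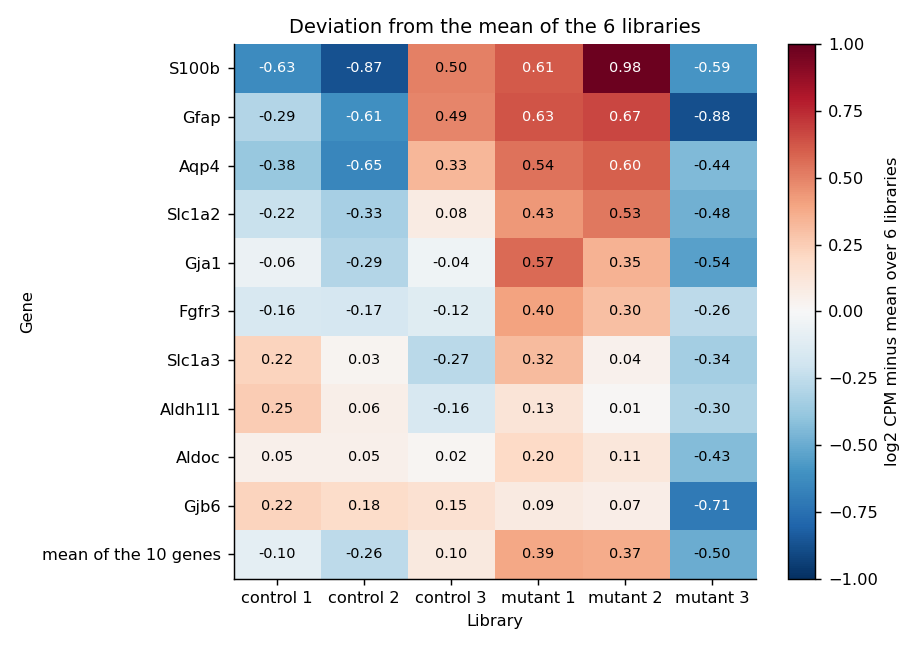
Deviation of log2 CPM (prior count 2) from the mean of the 6 libraries, for each astrocyte gene (rows) and library (columns). S100b, Gfap and Aqp4 are high in control mouse 3 and mutant mice 1 and 2, all 10 genes are below their mean in mutant mouse 3, and the mean of the genes goes from -0.50 in mutant mouse 3 to 0.39 in mutant mouse 1.

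In the comparison of the genotypes over all genes, none of the 10 astrocyte genes reached the threshold of 0.05 by edgeR after adjustment, and none had an unadjusted p under 0.05. By edgeR, 5737 of all 17099 genes tested had an unadjusted p under 0.05. After adjustment, 8.62% of all genes tested were higher and 6.01% were lower in the mutants at the threshold of 0.05. In the fit of all 6 libraries, the median log2 fold change of the members was 0.33, with 7 positive and 3 negative, against a median of 0.01 for all genes tested. The signs depended on the mice used, as Slc1a3 was at -0.14 without mutant mouse 1 and Aldoc at 0.11 without mutant mouse 3. The median was not recomputed without single mice. DESeq2 and limma voom also called none of the members, and 1 member, Fgfr3, had an unadjusted p under 0.05 in DESeq2 (log2 fold change 0.32, unadjusted p = 0.0438, adjusted p = 0.138). An unadjusted p under 0.05 was also given by edgeR to 4 members with no filter on low counts (Aqp4, Slc1a2, S100b and Fgfr3), to 2 members without control mouse 3 (Aqp4 and S100b) and to 6 without mutant mouse 3. How many of all genes had an unadjusted p under 0.05 in DESeq2 and in these refits was not counted. Every 95% interval included zero, that of Fgfr3 only just (-0.02 to 0.67), and that of S100b reached 1.67. Leaving out a single mouse moved the values of the most variable members, from 0.13 (without mutant mouse 2) to 0.75 (without control mouse 3) for Gfap, from 0.34 to 1.23 without the same mice for S100b, and from 0.29 (without control mouse 2) to 0.82 (without control mouse 3) for Aqp4, and none of these 3 genes was called in any such fit. For 3 other members the call depended on mutant mouse 3. Without that library, Fgfr3, Gja1 and Slc1a2 were higher in the mutants, with log2 fold changes of 0.50, 0.59 and 0.63 and edgeR adjusted p-values of 0.0118, 0.0178 and 0.0211, in a fit that called 9.59% of all genes higher. Mutant mouse 3 had the lowest level of the 6 libraries for 8 of the 10 members, and for 15.5% of all genes tested.

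**Figure D3:**
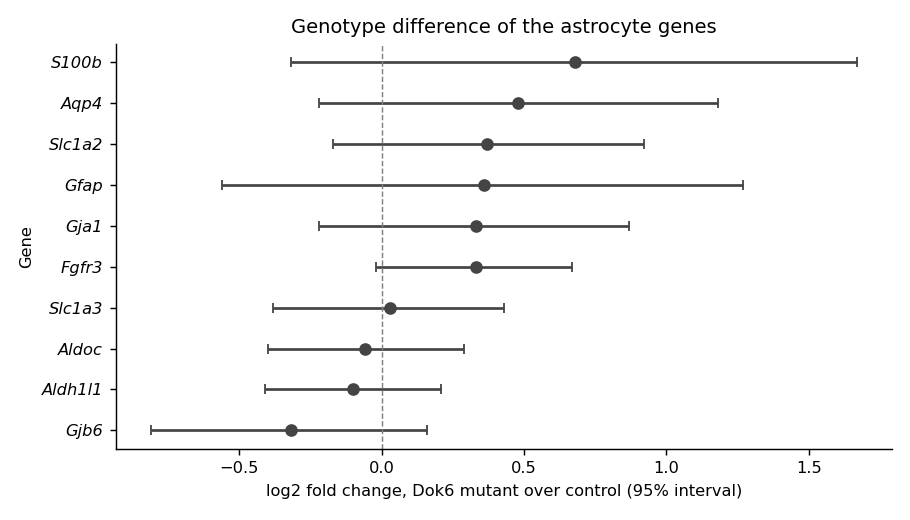
Log2 fold change of each astrocyte gene (rows), Dok6 mutant over control, from edgeR's quasi-likelihood fit of 3 against 3 libraries, with 95% intervals that are not adjusted for the number of genes. Every interval includes zero, from S100b at 0.68 to Gjb6 at -0.32.

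A further list of 36 astrocyte genes that shares no gene with the members was also measured. Of these, 35 passed the filter on low counts and had at least 1 CPM in every library, while Etnppl, an enzyme of mature astrocytes, was at 0.0571 to 0.458 CPM. Sparcl1, which encodes the secreted protein hevin, was the highest per kb, at 2710, 2360 and 2680 CPM in the controls and 3160, 2730 and 1650 CPM in the mutants. Slc6a11, a GABA transporter of astrocytes, was at 1220, 1030 and 1250 CPM in the controls and at 1470, 1440 and 824 CPM in the mutants. Ndrg2 ranged from 487 to 780 CPM and Glul, the glutamine synthetase that recycles glutamate, from 517 to 671 CPM. Among the 35 genes tested, 19 had a positive and 16 a negative log2 fold change, with a median of 0.05. By edgeR none was called after adjustment, and 3 had an unadjusted p under 0.05, against 5737 of all 17099 genes tested. DESeq2 and limma voom each called Slc7a11 higher and Cspg5 lower. Mutant mouse 3 was the lowest library for 27 of the 35 genes. The 3 highest libraries were control mouse 3 and mutant mice 1 and 2 for 19 of the 35 genes and for 6 of the 10 members, against 7.90% of all genes tested; this order was read from the values of the members and is a description only.

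Genes of other cell types moved with some of these differences. The list of 16 genes of the oligodendrocyte lineage, the myelinating glia of the central nervous system, summed to 762, 585 and 1760 CPM in the controls and to 1560, 2460 and 664 CPM in the mutants, and 12 of its 15 tested genes had the same 3 highest libraries as Gfap. Mag, an adhesion protein of myelin, was at 11.6, 8.24 and 98.9 CPM in the controls and at 59.8, 180 and 6.88 CPM in the mutants. None of the 15 genes was called in either direction. Schwann cell genes summed to 1080 to 1820 CPM in the controls and to 1680, 5960 and 1510 CPM in mutant mice 1, 2 and 3, and 10 of 20 tested were higher and none lower in the mutants. This list shares genes with the oligodendrocyte list, Sox10 among them, and Cadm4, at 390 to 548 CPM, is also expressed in the central nervous system. Satellite glial cell genes, of which Glul and Kcnj10 are also astrocyte genes, summed to 3320 to 4110 CPM and to 3230 to 5030 CPM, with 2 of 10 called higher (Fabp7 and Cdh19). Of 11 genes of radial glia and ependyma, 2 were called higher, Nes and Fabp7. The fatty acid binding protein gene Fabp7 ranged from 389 to 421 CPM in the controls and from 473 to 518 CPM in the mutants and, unlike the astrocyte genes, was not lower in mutant mouse 3. The part of these cells in the levels of the astrocyte genes was not tested.

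Genes of central neurons summed to 2270, 2590 and 2740 CPM in the controls and to 2070, 2070 and 2200 CPM in the mutants, with 1 of 17 called higher (Slc17a7, at 0.401 to 0.974 CPM in the controls) and 2 lower (Slc32a1 and Pax2). Against this sum, the astrocyte genes were at a ratio of 1.33, 1.06 and 1.21 in the controls and of 2.01, 1.94 and 1.04 in the mutants, so that mutant mouse 3 was just below the lowest control and the first and second mutants were above all controls. Many genes of several other cell types were called higher in the mutants. Sensory neuron genes summed to 384 to 416 CPM in the controls and 555 to 1250 CPM in the mutants (10 of 14 tested called higher, while Tac1, Pou4f1, Isl1 and Prrxl1 were not called), and skeletal muscle genes to 18.6 to 28.1 CPM and 133 to 705 CPM (9 of 10). Fibroblast and connective tissue genes (7 of 10) and endothelial genes (4 of 8, Kdr, Tek, Flt1 and Emcn, at 182 to 294 CPM in the controls and 318 to 442 CPM in the mutants) were called higher as well. Microglia and macrophage genes were at 96.7 to 142 CPM in the controls and at 133 to 190 CPM in the mutants (1 of 10 called higher, Tmem119), and chondrocyte genes, a further source of Fgfr3 RNA, at 77.1 to 106 CPM and 89.1 to 209 CPM (none of 6 called). No gene of the sensory neuron, muscle, fibroblast, endothelial, microglia and chondrocyte lists was called lower. Their part in the values of the astrocyte genes was not tested.

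**Figure D4:**
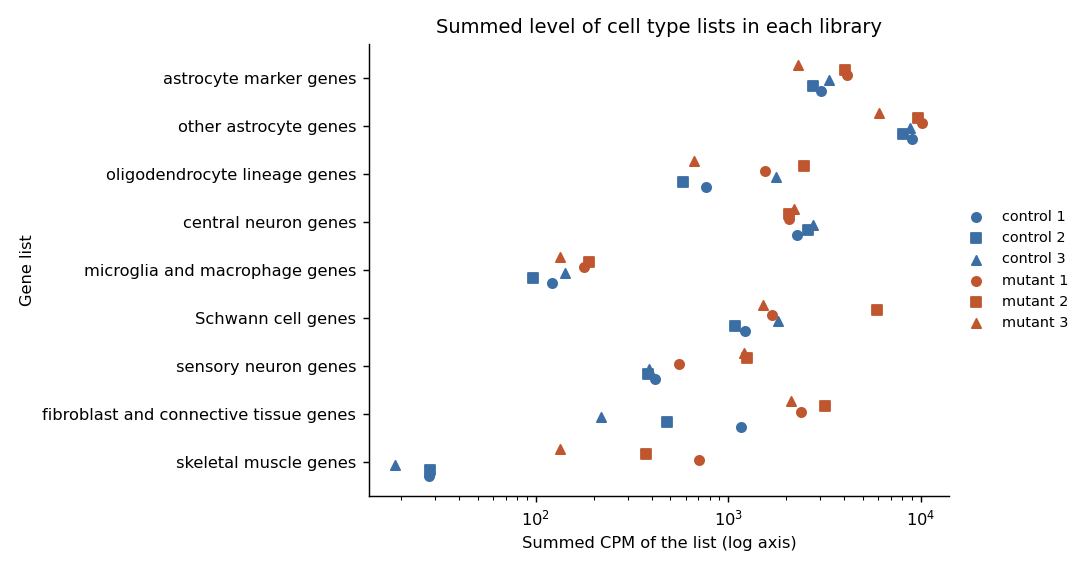
Summed CPM (log axis) of the astrocyte genes and of lists of genes of other cell types (rows) in each control (blue) and Dok6 mutant (orange) library, with the marker shape giving the mouse number. The astrocyte genes sum to 2288 to 4155 CPM with overlap of the genotypes, whereas skeletal muscle genes go from 18.6 to 28.1 CPM in the controls to 133 to 705 CPM in the mutants.

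The genes whose profile over the 6 libraries was most like the mean of the 10 astrocyte genes, by the root mean square distance between log2 CPM centred on the mean of each gene, were Slc6a9 (0.027), AI849053 (0.037), Plpp3 (0.046), Acsbg1 (0.049) and Arap2 (0.055), out of 10658 genes with a mean of at least 10 CPM. Slc6a9, the glycine transporter GLYT1 of glia, was at 82.3, 76.0 and 97.8 CPM in the controls and at 120, 115 and 66.0 CPM in the mutants. Nearest to Gfap were Slc14a1 (0.068), a urea transporter, Car2 (0.106), a carbonic anhydrase, and S100a1 (0.141). Among the members themselves, Aqp4 was the nearest to Gfap (distance 0.199, in position 10 of 10667 genes) and Aldh1l1 the nearest to Slc1a3 (distance 0.094, in position 7), whereas the member nearest to Fgfr3, Gja1, stood at position 305. These distances rest on 6 libraries.

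In GENCODE M21 on GRCm38, Gfap (ENSMUSG00000020932) lies on chromosome 11 from 102887336 to 102900912, and Aldoc (ENSMUSG00000017390) on chromosome 11 from 78322968 to 78327781. S100b (ENSMUSG00000033208, 76253853 to 76261159) and Gja1 (ENSMUSG00000050953, 56377330 to 56402513) are on chromosome 10. Slc1a2 (ENSMUSG00000005089) is on chromosome 2 from 102658659 to 102790784, and Slc1a3 (ENSMUSG00000005360) on chromosome 15 from 8634124 to 8710764. Gjb6 (ENSMUSG00000040055) is on chromosome 14 from 57123303 to 57133611, and Aqp4 (ENSMUSG00000024411) on chromosome 18 from 15389496 to 15410982. Aldh1l1 (ENSMUSG00000030088) is on chromosome 6 from 90486427 to 90600203, and Fgfr3 (ENSMUSG00000054252) on chromosome 5 from 33721674 to 33737068. Counts are over all exons of a gene. Exons of Slc1a2, Aldh1l1 and Fgfr3 are overlapped by exons of genes on the other strand (Gm13872, Gm15756 and G630022F23Rik), and those of Aldh1l1 also by Gm45901 on the same strand. As the use of strand in counting is not given in the sources used here, the counts of these 3 members are less certain. Gm15756 and G630022F23Rik also held stretches of at least 200 bases that matched transcripts of Aldh1l1 and Fgfr3 with an identity of 95% or above, and no other member had such a match.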

How the data were processed

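The authors sequenced 1 RNA library per mouse, made with a NEBNext Ultra kit, which the paper's methods call directional and the labels do not. The deposited values are counts of reads per gene, not normalized, and the authors also deposited gene lengths. The submitters' processing notes name mm10. The aligner, the counting tool and the use of strand are not given in the sources used here. Columns were matched to mice by genotype and number.

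Genotypes were compared in R 4.3.3 with edgeR 4.0.16: filterByExpr (17099 of 54532 genes kept), TMM scaling, and the quasi-likelihood test on all 6 libraries, with Benjamini-Hochberg adjustment over all genes tested. Standard errors were derived from the F statistic. CPM are counts scaled by the library total times its TMM factor, and CPM per kb are CPM divided by the deposited length. P-values set the genotype difference against the variation between libraries, with 1 library per mouse. Exact permutation of 3 against 3 mice cannot give a two-sided p below 0.10 and was not used. Alternatives were DESeq2 1.42.0, limma 3.58.1 (voom), other scalings and filters, a fold change threshold, the replicate number as a block, and leaving out each mouse. The procedures were tested on simulated counts. BLAST 2.17.0 was used to find transcripts nearly identical to those of the members, and 54409 identifiers are in GENCODE M21.

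Genes named are the 10 members, Dok6, the up to 4 genes with the highest level per kb in each list (in part given by range), and the genes with the nearest profile; Mag, Prx, Egr2, L1cam, Ngfr, Slc6a5, Etnppl, Slc7a11, Cspg5, Kcnj10, Nes, Cdh19, Slc17a7, Chat, Pou4f1, Isl1, Pax2, Tmem119, Tek, Flt1, Emcn and Ppp1r3c were named after their values were seen. The members and lists were chosen with earlier results of these data known. No table of protein sequences was used. Single values of some Schwann cell and oligodendrocyte genes are not reported here.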

Additional observations from a re-analysis of the deposited data

How the results depend on the processing

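No alternative scaling, filter, tool or block called any of the 10 members, and leaving out a mouse gave 0 to 3 members called higher, with 3 only without mutant mouse 3. Over 130 refits of single members, 122 kept their direction and their side of the threshold, and 5 changed sign, all when a mouse was left out. These were Aldh1l1 at 0.01 without control mouse 1 and at 0.01 without mutant mouse 3, Aldoc at 0.11 without mutant mouse 3, and Slc1a3 at -0.09 without control mouse 3 and -0.14 without mutant mouse 1. Leaving out mice gave -0.20 to 0.01 for Aldh1l1, -0.18 to 0.11 for Aldoc, -0.14 to 0.18 for Slc1a3, 0.13 to 0.75 for Gfap, 0.29 to 0.82 for Aqp4, 0.34 to 1.23 for S100b, 0.19 to 0.63 for Slc1a2, 0.10 to 0.59 for Gja1, 0.20 to 0.50 for Fgfr3 and -0.45 to -0.10 for Gjb6. The other 3 were Fgfr3, Gja1 and Slc1a2, which passed the threshold without mutant mouse 3. Over all genes, leaving out a mouse gave 56 to 1671 genes higher and 12 to 1233 lower, the lowest counts without control mouse 2, and a log2 fold change above 2 left 185 and 19. With the replicate block, 432 genes were higher and 130 lower. The mouse numbers were not treated as pairs, since deviations of same-numbered mice correlated at -0.01, -0.21 and -0.29 across genes. The further astrocyte list had 1 gene lower with RLE scaling (Cspg5), 2 higher with no filter (Slc7a11 and Ppp1r3c), 1 higher and 1 lower with DESeq2 and with limma voom, and 0 to 5 higher when a mouse was left out. The cause of these changes was not tested. Each member had at least 136 counts in every library, and the effect of depth was not tested.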
